A study of Homo sapiens with 3 samples.

Results

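TREM2, the triggering receptor expressed on myeloid cells 2, is a cell surface receptor of macrophages, microglia and osteoclasts. It binds lipids and lipoproteins and has no signaling tail of its own. It signals through the adaptor DAP12, encoded by TYROBP, whose phosphorylated motif recruits the kinase SYK. TREM1 is its paralog on monocytes and neutrophils and uses the same adaptor. SPI1 encodes PU.1, the transcription factor that specifies macrophages, and CEBPE encodes C/EBPε, a transcription factor of late granulocyte differentiation. CSF1R is the receptor for macrophage colony-stimulating factor, CD68 is a lysosomal glycoprotein widely used to stain macrophages, and LAPTM5 is a lysosomal membrane protein of blood cells. These 8 genes are best known from myeloid cells, and their signals in a liver cancer line treated with a DNA-damaging drug were examined gene by gene.

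The 8 genes were chosen by name, with earlier values of these arrays known, as myeloid genes most of which were near background in control cells. The signals on the 3 arrays were therefore part of the choice, and the ratios below are descriptions of these arrays without a test. All 8 were on the array, with 9 probes and 18 spots among 27269 gene names and 34118 probes. Some probes have no gene name and carry their probe identifier in its place. They count as genes here, so shares over all genes include them. HepG2 is a human hepatocellular carcinoma line with wild-type p53. The labels give 1 sample for each condition, in which cells were left without drug (control cells), exposed to etoposide at 10 μM, or exposed to it at 100 μM, and RNA was taken after 30 h. Etoposide blocks topoisomerase II and leaves DNA double-strand breaks. The labels call the control untreated, whereas the published table names it DMSO. With 1 array per condition, all on 1 slide, the spread between cultures is unknown.

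A probe counted as detected where the software marked its signal as well above background. TREM2 rose from background to a strong signal at both doses, LAPTM5 and CEBPE did so to lower signals, and the 5 other genes did not follow this pattern. CD68 and TYROBP were already detected in control cells, CSF1R and SPI1 reached the detection limit at 100 μM only, and TREM1 was not detected on any array. The pattern of no detection in control cells and detection at both doses was met by 3 of the 8 genes and by 257 of all 27269 genes (0.942%).

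The probes that measured the receptors were read from the array files. The TREM2 probe (A_24_P12397, for NM_018965) lies at chr6:41237042-41237101 on the minus strand of hg18, starts at base 370 of the transcript and falls in the coding sequence of the immunoglobulin-like domain. The first TREM1 probe (A_23_P19333, for NM_018643) has ends at chr6:41351916-41356705 on the minus strand, a span of 4790 bases for 60 bases of probe, so it crosses an intron. The second TREM1 probe (A_33_P3319905, for AK292162), at chr6:41351511-41351570 on the minus strand, was the brighter of the pair and stood for the gene in the gene lists. The probes for the RefSeq transcripts of both paralogs are printed 5′ to 3′ to show what was measured, and no base is in capitals.
TREM2 probe: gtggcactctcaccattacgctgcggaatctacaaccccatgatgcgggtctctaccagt
TREM1 probe: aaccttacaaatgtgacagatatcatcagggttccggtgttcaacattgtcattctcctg

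The TREM2 signal was 7.46 in control cells, where the spot was not detected, 2470 at 10 μM and 943 at 100 μM, in arbitrary units of processed signal. The software's own error of these values was 4.12, 247 and 94.5. The control signal lay among the 153 negative control spots of that array, which ranged from 3.84 to 13.3. Both treated signals were far above the highest negative control spots, 37.3 at 10 μM and 50.6 at 100 μM. No TREM2 spot was marked as an outlier or as saturated.

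Each array was scaled to its own 75th percentile over probes, and a dim signal was raised to that of the dimmest detected probe of the same array. This detection limit was 19.5 in control cells, 22.7 at 10 μM and 21.6 at 100 μM. It is the lowest detected signal, and some undetected signals lay above it, such as 26.7 for MARCO at 10 μM. Those were not raised. On this scale TREM2 was at least 121-fold higher at 10 μM than in control cells (log2 ratio 6.92) and at least 57.4-fold higher at 100 μM (log2 ratio 5.84). The spread between repeated spots at such signals was 0.041 at 10 μM and 0.047 at 100 μM (SD on the log2 scale), which covers 1 array and not cultures. With each bound ranked at its value, these were the highest of all genes with a ratio, ranking 1 of 16659 at 10 μM and 1 of 16775 at 100 μM. The signal at 10 μM was 2.11-fold above that at 100 μM (log2 ratio 1.08, spot SD 0.062). A lower signal in RNA from a whole culture can come from fewer expressing cells or from less RNA per cell, and these cannot be told apart here.

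TREM2 has 1 probe with 1 spot, so the signals of the spots around it were read as well. Of the 21 other spots within 2 rows and 2 columns, 16 were detected in control cells, 15 at 10 μM and 16 at 100 μM, and none was an outlier. The 15 spots detected on both the control and the 10 μM array had log2 ratios between -0.58 and 0.96, with a median of 0.00099. The TREM2 spot in the middle had a log2 ratio of at least 6.92.

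**Figure D1:**
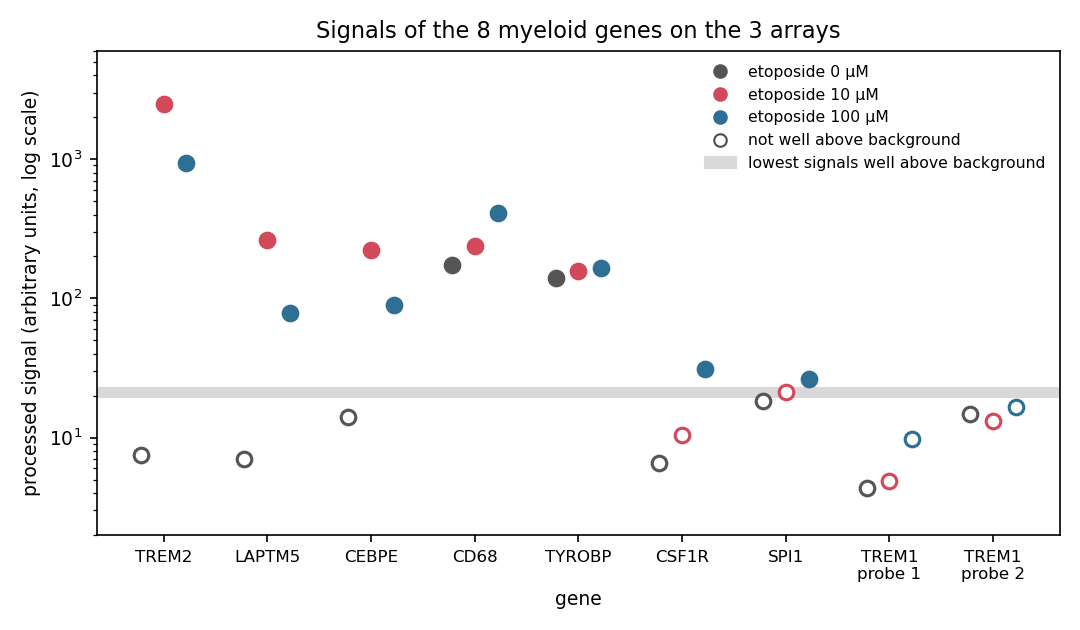
Processed signal (arbitrary units, log axis) of the 9 probes of the 8 genes on the 3 arrays, 1 point per array. Filled points are detected (well above background), open points are not, and the gray band spans the detection limits of the 3 arrays (19.5 to 22.7). TREM2, LAPTM5 and CEBPE go from open points in control cells to filled points at both doses, highest at 10 μM.

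LAPTM5 and CEBPE showed the same order of conditions as TREM2 at lower signals. LAPTM5 (probe A_23_P86283, at chr1:30978430-30978489, minus strand, hg18) gave 6.995 in control cells, not detected, 262 at 10 μM and 78.0 at 100 μM. It exceeded control by at least 12.9-fold at 10 μM and by at least 4.75-fold at 100 μM, and the signal at 10 μM was 2.71-fold above that at 100 μM (spot SD 0.12 on the log2 scale). CEBPE (probe A_33_P3387991, at chr14:22656387-22656446, minus strand) gave 14.1 in control cells, not detected, 222 at 10 μM and 89.0 at 100 μM. It exceeded control by at least 10.9-fold at 10 μM and by at least 5.42-fold at 100 μM. Its signal at 10 μM was 2.02-fold above that at 100 μM (log2 ratio 1.01, spot SD 0.12), closer to 2-fold than the spread between spots.

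Because these 3 genes changed in the same order, the 250 bases before their transcription starts were read from RefSeq (build GRCh38.p14), which gave 8 windows for 7 of the 8 genes. SPI1 was without an entry. The windows lie at chr6:41163117-41163366 for TREM2, chr1:30757775-30758024 for LAPTM5 and chr14:23119256-23119505 for CEBPE, all on the minus strand, and are printed 5′ to 3′ with the start site just after the last base. Capitals mark matches, on either strand, to GAGGAA (the core of PU.1 sites), TTNNGNAA (C/EBP sites), TGANTCA (AP-1 sites) and the p53 half-site consensus.
TREM2 promoter: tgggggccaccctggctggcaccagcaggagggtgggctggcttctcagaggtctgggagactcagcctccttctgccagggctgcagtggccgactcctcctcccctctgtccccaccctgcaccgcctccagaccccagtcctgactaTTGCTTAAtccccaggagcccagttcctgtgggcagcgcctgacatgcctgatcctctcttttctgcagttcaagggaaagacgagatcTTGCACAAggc
LAPTM5 promoter: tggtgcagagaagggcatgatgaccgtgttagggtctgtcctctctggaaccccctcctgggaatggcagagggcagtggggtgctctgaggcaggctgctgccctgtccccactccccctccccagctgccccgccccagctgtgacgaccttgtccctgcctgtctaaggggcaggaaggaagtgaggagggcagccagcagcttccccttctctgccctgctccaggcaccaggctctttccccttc
CEBPE promoter: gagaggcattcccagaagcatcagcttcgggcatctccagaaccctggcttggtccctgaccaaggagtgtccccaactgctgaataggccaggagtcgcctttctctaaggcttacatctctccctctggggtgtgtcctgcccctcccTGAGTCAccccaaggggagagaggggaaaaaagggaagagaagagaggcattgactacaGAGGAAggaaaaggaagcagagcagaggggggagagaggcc

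The 3 windows shared none of the motifs searched. TREM2 held 2 matches to TTNNGNAA, at bases -100 to -93 and -11 to -4 before the start, a motif found in 33.6% of the windows of 27305 genes, 1 window for each gene. CEBPE held 1 GAGGAA at -41 to -36, found in 23.4% of windows, and 1 TGANTCA at -100 to -94, found in 6.6%. LAPTM5 held none of these letters, and none of the 3 windows held the p53 half-site, which 5.53% of all windows had, or TATAAA, which 11.1% had. Members without the pattern held such motifs too. TREM1 held 3 matches to TTNNGNAA and TYROBP 2 to GAGGAA. CD68 held 2 TTNNGNAA, 1 GAGGAA and 1 TGANTCA, the last also at -100 to -94, and a CSF1R window held the p53 half-site. The 3 printed windows were 62.4% GC for TREM2, 64.8% for LAPTM5 and 57.2% for CEBPE. Such matches describe sequence in a short window and say nothing of binding.

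The 3-fold threshold over control used in the study was passed by these 3 genes at both doses and by no other of the 8. At 10 μM 3 of the 5 genes with a detected signal passed, against 215 of 16714 genes (1.29%) over the array. At 100 μM 3 of 7 passed, against 313 of 16977 genes (1.84%). No member was more than 3-fold lower, which 0.359% of genes were at 10 μM and 1.64% at 100 μM. All 3 passed at both doses, as did 97 genes in all (0.563% of 17244). All 3 also combined more than 3-fold at 10 μM with more than 2-fold between the doses, as did 80 genes in all (0.464%). These counts rest on the detection and floor steps used here. The study reported fewer genes past the same thresholds, and its table of selected genes does not name TREM2, LAPTM5 or CEBPE. Since the members were picked with these values in view, the shares describe the choice. With each bound ranked at its value, LAPTM5 was at place 15 and CEBPE at 17 of all genes at 10 μM, and at 77 and 54 at 100 μM. These places are those of bounds and move with the detection limit.

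These calls depended on the handling of dim signals and on scaling. With normexp background correction and an offset of 50, which raises dim signals, LAPTM5 was 2.01-fold and CEBPE 2.06-fold over control at 100 μM, below 3-fold, and the signal at 10 μM was 1.77-fold and 1.48-fold above that at 100 μM. With the 75th percentile taken over all spots, or over probes detected on all arrays, CEBPE was 1.91-fold or 1.99-fold higher at 10 μM than at 100 μM. TREM2 kept both thresholds under every setting that gave it a value, with between 32.5-fold and 317-fold at 10 μM, 15.7-fold and 150-fold at 100 μM, and 2.005-fold and 2.62-fold between the doses.

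**Figure D2:**
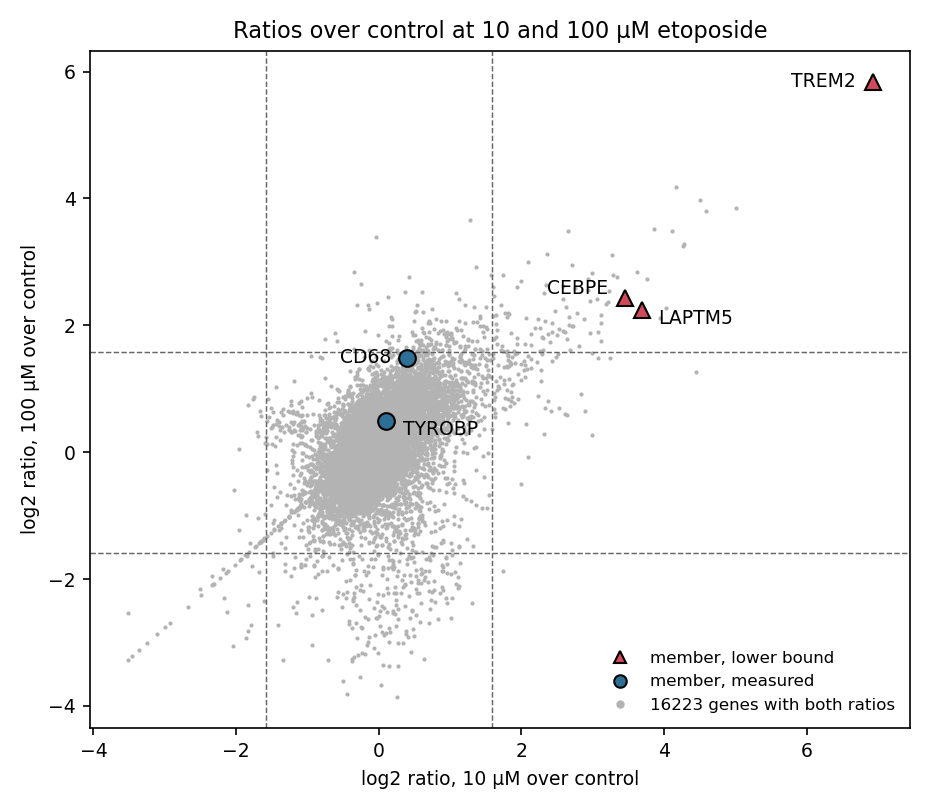
Log2 ratio over control at 10 μM (x axis) and 100 μM etoposide (y axis) for 16223 genes with a ratio at both doses (gray), with members in color, lower bounds as triangles and measured ratios as circles. Dashed lines mark 3-fold. TREM2 stands alone at the upper right at 6.92 and 5.84, CEBPE and LAPTM5 lie within the upper right corner, CD68 lies just under the 3-fold line at 100 μM, and TYROBP lies in the main cloud. CSF1R, SPI1 and TREM1 had no ratio at 10 μM.

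TYROBP, the adaptor that TREM2 needs to signal, was detected on all arrays and stayed under 3-fold at both doses. Its signal (probe A_33_P3409062, at chr19:41087152-41087211, minus strand) was 140 in control cells, 157 at 10 μM and 165 at 100 μM. The ratios were 1.07-fold at 10 μM (spot SD 0.10 on the log2 scale) and 1.40-fold at 100 μM (log2 ratio 0.48, spot SD 0.11). The first was smaller than the spread between spots and the second was larger, and with arrays scaled to the median in place of the 75th percentile the second was 1.15-fold.

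CD68 was also detected on all arrays and had the reverse order of doses. Its signal (probe A_23_P15394, at chr17:7425603-7425662, plus strand) was 173 in control cells, 239 at 10 μM and 409 at 100 μM. It was 1.32-fold above control at 10 μM (log2 ratio 0.40, spot SD 0.10) and 2.81-fold at 100 μM (log2 ratio 1.49, spot SD 0.095), just short of 3-fold. The signal at 10 μM was 2.12-fold below that at 100 μM, and CD68 was the only member past 2-fold in this direction. Over the array 3.64% of genes were more than 2-fold higher and 3.93% more than 2-fold lower at 10 μM than at 100 μM. Without scaling between arrays the difference was 1.71-fold, since scaling raised the 100 μM array relative to the others.

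CSF1R, the receptor through which macrophages receive their growth signal, was spotted 10 times on each array (probe A_23_P110791, at chr5:149413054-149413113, minus strand). In control cells the 10 spots ranged from 4.50 to 16.9 with a median of 6.05, and 0 of 10 were detected. At 10 μM they ranged from 5.06 to 28.1 with a median of 9.31, and 1 of 10 was detected. At 100 μM they ranged from 24.9 to 43.4 with a median of 29.7, and 8 of 10 were detected. All 10 100 μM spots were above all 10 control spots, and 9 of the 10 10 μM spots were below the lowest 100 μM spot. The geometric means were 6.55, 10.4 and 31.3, a measured ratio of 5.68 at 100 μM, but with the control raised to its detection limit the ratio was at least 1.91-fold. The highest negative control spot of the 100 μM array was 50.6, above every CSF1R spot.

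**Figure D3:**
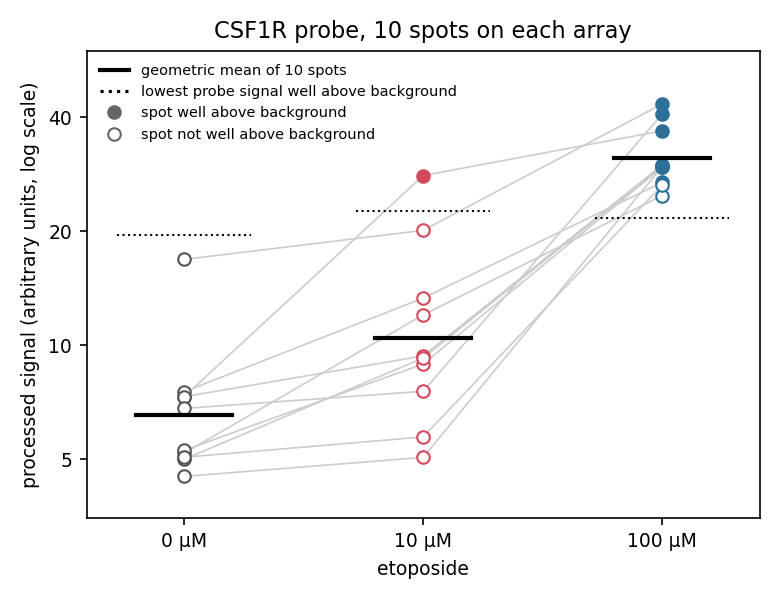
Processed signal (arbitrary units, log axis) of the 10 CSF1R spots on each array against the etoposide dose, with lines joining spots at the same position. Filled points are detected (0, 1 and 8 of 10), thick bars are geometric means (6.55, 10.4 and 31.3) and dotted lines are the detection limits. The spots are repeats on 1 array per dose and not replicate cultures.

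SPI1 stayed at the detection limit. Its signal (probe A_33_P3489646, at chr11:47333040-47333099, minus strand) was 18.4 in control cells and 21.4 at 10 μM, neither detected, and 26.4 at 100 μM, where the spot was detected. The ratio at 100 μM was at least 1.61-fold, with a spot SD of 0.23 on the log2 scale, and 26.4 was below the highest negative control spot of that array. The 2 TREM1 probes gave signals between 4.33 and 16.6 on the 3 arrays, and none was detected. For TREM1 these arrays therefore give no ratio, only signals under the detection limit.

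The other genes of the TREM locus and of DAP12 signaling were then read from lists of relatives. Of the 9 genes of the TREM family and its adaptors on the array, 2 were detected in control cells and 3 at each dose, with TREM2 as the added gene. TREM1, TREML1, TREML2, TREML3, TREML2P and TREML4 were not detected on any array. HCST, which encodes the alternative adaptor DAP10 and was picked out after its values were seen, gave 154 in control cells, 183 at 10 μM and 252 at 100 μM. Its ratios were 1.14-fold at 10 μM and 1.95-fold at 100 μM. Other receptors that pair with DAP12 had 13 genes on the array, of which 9 were detected on all arrays and 0 passed 3-fold at either dose, with a median log2 ratio of -0.19 at 10 μM and 0.05 at 100 μM. Of 33 genes of DAP12 signaling, 23 had a ratio at 10 μM and 24 at 100 μM, 0 passed 3-fold at either, and the medians were 0.058 and 0.12. The corresponding medians over all genes were -0.037 and 0.094. Over the array 1.29% of genes with a detected signal passed at 10 μM and 1.84% at 100 μM. A count of 0 in a short list, here and in the lists below, is near that share. SYK, the kinase that DAP12 recruits, and PLCG2, LCP2 and BTK were among the 9 DAP12 signaling genes not detected on any array. Another 22 were detected on all arrays, among them SRC, LYN, PLCG1 and ZAP70. ZAP70 gave 65.6, 152 and 96.3, or 2.23-fold and 1.75-fold over control. The genes named from this list were picked out after their values were seen.

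Genes on both sides of TREM2 on chromosome 6 were mostly under 3-fold. Of 19 such genes on the array, TREM2 included, 10 were detected in control cells. Of the 10 with a ratio other than TREM2, 1 passed 3-fold at 10 μM and 0 at 100 μM, and the median log2 ratio was 0.24 at 10 μM and 0.31 at 100 μM. The gene that passed was MDFI, which encodes an inhibitor of myogenic transcription factors. Its signal was 749 in control cells, 2707 at 10 μM and 1613 at 100 μM, or 3.47-fold and 2.56-fold over control.

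No other gene of the C/EBP family passed 3-fold over control. All 6 others were detected on all arrays, 0 passed 3-fold in either direction, and their median log2 ratio was -0.26 at 10 μM and -0.59 at 100 μM. CEBPA, a regulator of both liver and myeloid differentiation, gave 3560, 3175 and 3297, and CEBPB gave 9947, 9299 and 5153. DDIT3, a stress-induced member, gave 937, 494 and 275 and was 1.98-fold lower at 10 μM and 2.87-fold lower at 100 μM than in control cells. These 3 were picked out after their values were seen. Of the 17 genes other than SPI1 in the list of the PU.1 family and myeloid transcription factors, 7 were detected in control cells, 7 at 10 μM and 8 at 100 μM, and 0 passed 3-fold at either dose.

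The relatives of LAPTM5 and CD68 on the array also stayed under 3-fold. LAPTM4A gave 37079, 35343 and 33438 and LAPTM4B gave 13361, 13865 and 9639, and the ratios over control of both lay between 0.857 and 1.07. In the LAMP family 2 genes other than CD68 had a ratio at both doses, and none of its 4 other genes passed 3-fold. Among 13 other CSF ligands and receptors, 0 passed 3-fold upward at either dose. PDGFRB, a receptor of the CSF1R family found on fibroblasts and stellate cells, gave 95.6 in control cells, 67.0 at 10 μM and 22.5 at 100 μM, where it was not detected. It was at least 3.58-fold lower at 100 μM than in control cells, and 1.46-fold lower with normexp.

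Genes that act with TREM2 in macrophages did not pass 3-fold, as was so for most genes of the array. Among 21 genes of lipid-associated macrophages other than TREM2 and TYROBP, 13 were detected on each array, 0 passed 3-fold at either dose, and the median log2 ratio was 0.25 at 10 μM and 0.30 at 100 μM. Most of those 13 encode lysosomal or lipid-handling proteins that liver cells also make. Among 14 genes of TREM2 ligands and shedding, which include APOE, CLU and the protease ADAM17, 0 passed 3-fold at either dose. Over the array 1.29% of genes with a detected signal passed at 10 μM and 1.84% at 100 μM, so 0 in these lists is near that share. The median log2 ratios over all genes were -0.037 at 10 μM and 0.094 at 100 μM.

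The tissue label held against marker genes. All 19 liver markers, among them ALB, AFP and SERPINA1, were detected on the 3 arrays. The lowest ratios at 10 μM were those of HNF4A and ALB (log2 ratios -0.80 and -0.74) and the highest those of FGA, TTR and SERPINA1 (0.63, 0.59 and 0.48). HNF4A was dim, with 50.7, 30.4 and 53.7 and a spot SD of 0.29 for the ratio at 10 μM. Its signal at 10 μM was below the highest negative control spot of that array, 37.3. FGA, a fibrinogen chain, was 3.68-fold higher than control at 100 μM on its brightest probe, and 3.97-fold and 2.77-fold higher on its others.

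Markers of other cell types were read because TREM2, LAPTM5 and CEBPE belong to such cells. Of 24 macrophage and monocyte markers other than the members, 8 were detected in control cells, 8 at 10 μM and 9 at 100 μM. AIF1, CD74, EMR1, CD86, CD14, ITGB2 and FCER1G were detected on all arrays. CD163, ITGAM, MSR1, C1QA, C1QB, C1QC and CYBB were among the 14 markers of this list not detected on any array. MARCO, a scavenger receptor of macrophages picked out after its values were seen, gave 12.3 and 26.7, neither detected. At 100 μM it gave 41.7, was detected and was at least 2.54-fold over control. That signal was below the highest negative control spot of the 100 μM array, 50.6. At 10 μM 0 of the 9 with a ratio passed 3-fold, and at 100 μM 1 did. That gene was CD14, the endotoxin coreceptor of monocytes, which liver cells also make, with signals of 521, 1184 and 1847 and ratios of 2.18-fold and 4.21-fold. ITGB2 and AIF1 had log2 ratios of 0.46 and 0.26 at 10 μM, and the lowest were CD86, EMR1 and FCER1G with -0.75, -0.28 and 0.05. The summed scaled signal of the 24 markers was 87718.5 in control cells, 54419 at 10 μM and 139576 at 100 μM, nearly all from CD86. Without CD86 it was 2772, 3829 and 4951, and most of the rise in that sum over control came from CD14 alone. CD86 was read on 1 probe, with a signal of 84946.5 in control cells, and whether this probe measured CD86 transcripts alone was not tested.

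Of 20 granulocyte and progenitor markers other than CEBPE and TREM1, 3 were detected in control cells, 2 at 10 μM and 3 at 100 μM, and MPO, ELANE, AZU1, S100A8 and S100A9 had probes but were not detected on any array. PRTN3 and CTSG, which encode neutrophil granule proteases and were picked out after their values were seen, were detected at 100 μM only. PRTN3 gave 15.1, 22.2 and 26.5 and CTSG gave 19.2, 20.6 and 27.4, at least 1.61-fold and 1.67-fold over control at 100 μM. Both 100 μM signals were below the highest negative control spot of that array, 50.6. CSF3R, the receptor for granulocyte colony-stimulating factor, was detected throughout, with 934, 1237 and 1829. The summed scaled signal of these 20 was 1113, 1381 and 2482, most of it from CSF3R. Without CSF3R it was 179, 195 and 309. Of 19 pan-leukocyte genes other than LAPTM5, 8 were detected in control cells, 10 at 10 μM and 11 at 100 μM, with summed signals of 1568, 1846 and 2201. Without ITGB2, the highest of them, the sums were 903, 929 and 1264. CD52, a surface peptide of lymphocytes and monocytes, gave 15.2 in control cells, not detected, 31.4 at 10 μM and 50.2 at 100 μM. It was at least 3.05-fold higher at 100 μM, and 1.72-fold higher with normexp. Both treated signals were below the highest negative control spots of their arrays, 37.3 at 10 μM and 50.6 at 100 μM. IL2RG had a log2 ratio of 0.51 at 10 μM, and CORO1A and LCP1 had 0.06 and -0.57. PTPRC, the common leukocyte antigen CD45, was 2.04-fold lower at 10 μM than in control cells, with 257, 131 and 288 on the brightest of its 5 probes, while the other 4 probes were not detected on any array. The part of other cell types in the signals of TREM2, LAPTM5 and CEBPE was not tested.

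**Figure D4:**
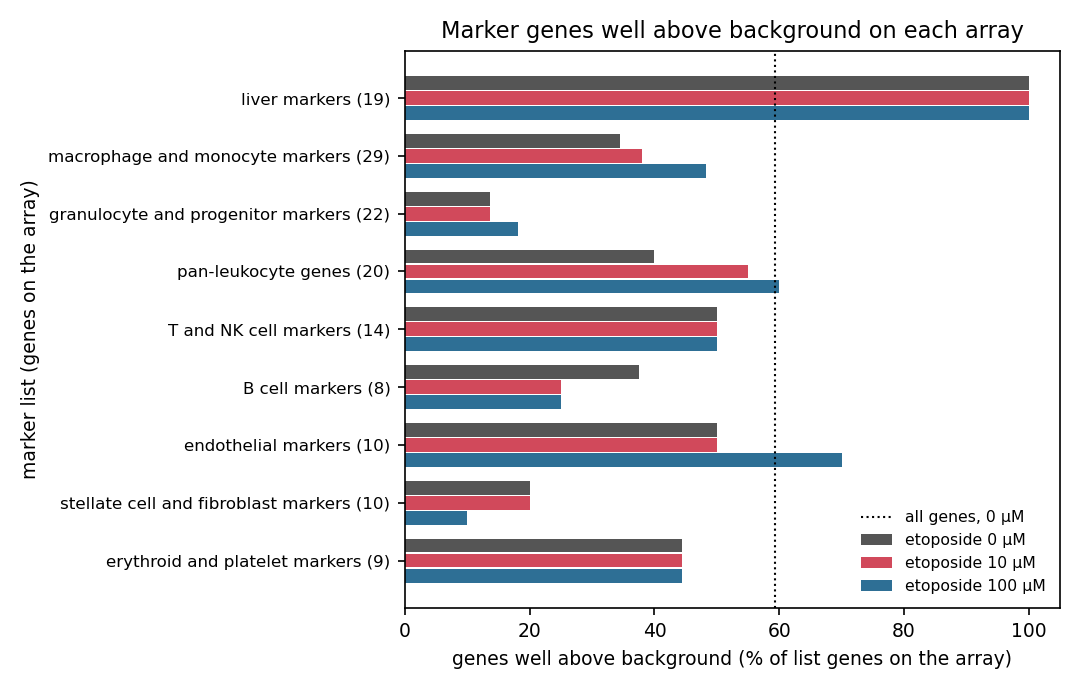
Share of marker genes detected on each array (x axis, % of the list's genes on the array) for 9 lists, with the number of genes in parentheses and 1 bar per etoposide dose. All 19 liver markers were detected at each dose, against 3, 3 and 4 of 22 granulocyte and progenitor markers. The dotted line is the share over all genes in control cells (59.4%).

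A few markers of lineages other than myeloid also passed 3-fold. CD3D, a chain of the T cell receptor complex, gave 187 in control cells, 1880 at 10 μM and 1358 at 100 μM, a rise of 9.61-fold and 8.60-fold. Of the 14 T and NK cell markers 7 were detected on all arrays and CD3D was the only one past 3-fold. LCK and NKG7 had log2 ratios of 1.32 and 0.39 at 10 μM, and CD8A, CD3E and CD28 had -0.38, -0.50 and -0.83. Of 10 endothelial markers LYVE1, a hyaluronan receptor of lymphatic and liver sinusoidal endothelium, rose from 50.8 to 177 at 10 μM and 295 at 100 μM, or 3.34-fold and 6.90-fold, and TIE1 was 3.14-fold higher at 100 μM. With normexp LYVE1 was 2.03-fold higher at 10 μM and TIE1 1.98-fold higher at 100 μM, both below 3-fold. PECAM1, CDH5 and ESAM had log2 ratios of -0.73, 0.08 and 0.21 at 10 μM. Of 10 stellate cell and fibroblast markers ACTA2, smooth muscle actin, rose from 1908 to 8750 and 5861, or 4.39-fold and 3.65-fold, the latter 2.99-fold with arrays scaled to the median. No B cell marker of 8 and no erythroid or platelet marker of 9 passed 3-fold at either dose. The B cell gene CD79A had a log2 ratio of -0.19 at 10 μM, and HBA2 and GP9 had 0.86 and 0.07.

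The genes with profiles closest to that of TREM2 were sought among non-members that were undetected in control cells and detected at both doses. Likeness was the Euclidean distance over the 3 scaled log2 signals, so the brightness of the probe enters it as well as the ratios. The nearest was MGC20647 at a distance of 3.06, with 16.9, 460 and 258, followed by RRAD, a small GTP-binding protein, at 3.22, with 15.7, 367 and 297. CABYR, a calcium-binding protein of sperm, was at 4.46, with 18.0, 252 and 117. PDE6C, a phosphodiesterase of cone photoreceptors, was at 4.57, with 18.3, 361 and 76.1, and a probe with no gene name was at 4.597, with 19.1, 333 and 79.3. All 5 were several log2 units away, and their lower bounds over control at 10 μM, from 12.4-fold to 22.6-fold, were all below that of TREM2. Of the 257 genes with this pattern 29 were more than 3-fold over control at both doses, and 6 of these were also more than 2-fold higher at 10 μM than at 100 μM, TREM2, LAPTM5 and CEBPE among them.

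The response to the drug was checked on target genes of p53, which etoposide activates. All 20 were detected on the 3 arrays, 12 were more than 3-fold higher at 10 μM and 5 at 100 μM, and 0 were more than 3-fold lower. CDKN1A, the cell cycle inhibitor p21, gave 170, 1407 and 1010 (7.94-fold and 7.06-fold), and MDM2, the p53 ubiquitin ligase, gave 616, 4522 and 1652 (7.03-fold and 3.18-fold). BTG2 was 10.1-fold higher at 10 μM, and RRM2B, SESN1 and ZMAT3, the lowest of the 12, were 3.05-fold, 3.13-fold and 3.19-fold higher. With normexp these 3 were 2.38-fold, 2.47-fold and 2.09-fold higher, below 3-fold, and RRM2B was 2.96-fold higher with quantile normalization. MDM2 at 100 μM was 2.68-fold over control without scaling, 2.61-fold with median scaling, 2.83-fold with spike-in scaling and 2.87-fold with normexp. All these ratios are those of the brightest probe. The other MDM2 probes gave 4.88-fold and 3.57-fold at 10 μM, and 2.77-fold and 2.20-fold at 100 μM. A second RRM2B probe gave 1.88-fold at 10 μM. FAS was 2.97-fold at 100 μM on its brightest probe, and 3.24-fold and 3.04-fold on its others.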

How the data were processed

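RNA from HepG2 cells of 3 conditions was measured on 1-color Agilent arrays after Cy3 labeling. The authors deposited the output of Feature Extraction (version 10.7.3.1 per the submitters' processing notes), whose intensity per spot was already corrected for background within the array but not scaled between arrays. The deposited series table held the same intensity for all 44495 spots of each array.

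From the intensity, the mean log2 value of each probe was taken over its spots, without outlier spots. A probe with nothing but outlier spots on an array was dropped, which left 34118 of 34127 probes. Values were set relative to the 75th percentile over probes of each array (signals of 514, 537 and 433), counting each probe once. That choice was made in earlier work on these data because it matched the published array ratios. A probe was well above background if more than 50% of its spots were. A dim signal was raised to that of the dimmest such probe on the array, so the ratio is a lower bound. The brightest probe stood for a gene. In all, 58.1% to 59.1% of probes were well above background and no spot was saturated. Precision is limited by 1 array per condition: no test is possible. Spot SDs are medians over the 50 repeated probes nearest in signal.

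The members and lists were chosen with earlier results of these data known. Named are all members, list genes past 3-fold at either dose, marker genes well above background on all arrays (the 3 highest and 3 lowest where over 6), the 5 genes nearest to TREM2, and CDKN1A and MDM2. Gene names come from the array files, and their positions are on hg18. List symbols were matched through a RefSeq table, and FCGR1A, LYZ, MRC1, FCGR3B, CD200R1L, KLRC2 and HBA1 were not analysed here. Values of a few marker genes that this rule names are not reported here. The ratio and bound steps were tested on simulated data. Alternatives were other scalings, background correction, filters, floors, thresholds, outlier spots kept and the series table. Python 3.11.15, pandas 2.3.3, numpy 2.4.6, R 4.3.3 and limma 3.58.1 were used.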

Additional observations from a re-analysis of the deposited data

How the results depend on the processing

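Of 129 repeats of the values for TREM2, the members and the lists under 16 alternatives, 96 stayed within the spread between spots or within 1.5 times the count. TREM2 kept its direction and its place past both thresholds wherever it had a value. Over control at 10 μM its log2 ratio was 6.98 without scaling, 6.74 with quantile normalization, 6.98 with spike-in scaling, 5.02 with normexp, 8.31 with no filter and floor, and 6.32 with the floor at the 5th percentile. At 100 μM it was 5.60 without scaling, 5.56 with median scaling, 5.70 with quantile normalization, 5.67 with spike-in scaling, 5.91 with the percentile over all spots, 3.98 with normexp, 7.23 with no filter and floor, and 5.24 with the floor at the 5th percentile. Between the doses it was 1.39 without scaling, 1.34 with median scaling, 1.30 with spike-in scaling, and 1.004 with the percentile over all spots. Requiring signal on all arrays left TREM2 without a value and 0 members past each threshold, since the filter removes genes that start from background. With normexp 1 member, TREM2, passed 3-fold at 100 μM and 1 passed 2-fold between the doses. A 1.5-fold threshold gave 6 members at 100 μM, and a 4-fold threshold gave 0 between the doses.

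Of the 280 list genes other than the members, 16 were more than 3-fold higher at 10 μM and 12 at 100 μM. Of these, 12 and 5 were p53 target genes, included as a check of the drug response. Over the array 1.29% and 1.84% of genes with a detected signal passed, and some of the 280 had no detected signal. With no filter and floor the count of list genes at 100 μM was 31. Under the other alternatives the count at 100 μM lay between 8, with median scaling, and 13, and that at 10 μM between 11, with normexp, and 22, with no filter and floor. At 100 μM 1 was more than 3-fold lower, against 2 without scaling, with median scaling or with spike-in scaling, and 0 with normexp, with signal required on all arrays or with the floor at the 5th percentile. At 10 μM 0 were lower, against 2 with no filter and floor. The median log2 ratio of all genes between the doses was -0.11, and 0.21 without scaling. Of 682 repeats for single genes, 492 stayed within the spread between spots, 190 moved further and 0 reversed. A reversal was counted only for a ratio past 3-fold over control, or 2-fold between the doses. Smaller ratios could not be counted as reversed, even with a change of sign. No paired analysis was possible because a single array stands for each condition. Signals near 20 are at the detection limit, so the ratios of CSF1R and SPI1 are limited by it, and TREM1 has no ratio. The ratios of TREM2, LAPTM5 and CEBPE over control are lower bounds set by the same limit.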
